A study of Mus musculus with 6 samples.

Results

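The transcription factors described here direct the skeletal fate of mesenchymal cells: Runx1, Runx2, Sp7, Dlx5, Msx1, Msx2, Sox9, Twist1, Twist2 and Prrx1. They were taken by gene symbol from the deposited comparison table, where each of the 10 had 1 array row, out of 35556 rows in all. Clone 4L.1.4, a tertiary clone of mouse mesenchymal stem cells (MSC) that came from the population MSC21, was measured on 3 arrays. It was set against MSC21 itself, the bone marrow MSC population, also on 3 arrays. Both groups were cultured in the same stem cell medium, and independent cell samples were harvested at confluence. No treatment, transgene or gene deletion is named for either group, and the labels give no strain, sex or age of the mice. The clone is a single clone and MSC21 a single population, so p-values measure the spread between cultures of these 2 lines, and that spread may be technical.

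Bone formation from mesenchymal cells depends on Runx2, which commits cells to the osteoblast fate, and on the zinc finger factor Sp7 (osterix), which acts downstream of it. Sox9 is the corresponding factor of the cartilage fate. The homeodomain factors Dlx5, Msx1 and Msx2 act in the response to bone morphogenetic proteins, the Twist proteins hold Runx2 in check during early skeletal development, and Prrx1 marks limb and skull mesenchyme before it differentiates.

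Values are log2 expression after RMA, a procedure that corrects background, equalises the distributions of the arrays and summarises the probes of a row. The array medians lay between 5.19 and 5.25 and the lower quartiles between 4.54 and 4.58, and no floor was measured for levels near the lower quartile. In bulk samples such as these, fewer cells expressing a gene and less RNA per cell cannot be told apart. Of 14 stromal markers 3 rose in the clone and 7 fell (limma adjusted p under 0.05), with a median log2 difference of -0.22. By the same test 12.8% of all rows rose and 10.9% fell, and of those above the median level 22.8% and 19.3%. The mean level of the stromal list lay between 8.77 and 8.78 on the clone arrays and between 9.08 and 9.12 on the population arrays. Of these 14 markers 13 lay above the median of at least 1 array. Of 14 leukocyte markers 13 lay below the median on every array, Ptprc among them with 4.39 in the clone and 4.37 in the population. The other, Cd53, a tetraspanin of leukocytes, fell, with levels of 4.47, 4.44 and 4.53 in the clone and 5.24, 5.39 and 5.41 in the population (-0.87 ± 0.06, limma adjusted p = 0.000149). The mean level of the leukocyte list lay between 4.53 and 4.57 on the clone arrays and between 4.64 and 4.67 on the population arrays, and that of the endothelial list between 4.53 and 4.59 on the clone arrays and between 4.53 and 4.57 on the population arrays. Of 10 endothelial markers 1 rose and 1 fell. Of 9 measured epithelial and neural markers 3 fell, the neuronal genes Gap43, Stmn2 and Map2, and 5 lay below the median on every array. The mean level of that list lay between 4.69 and 4.81 on the clone arrays and between 5.10 and 5.18 on the population arrays, and the part of these markers and of Cd53 in the results was not tested.

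In the clone 7 of the 10 factors were higher than in the population and 2 were lower at an adjusted p under 0.05, while 1 did not pass. Dlx5, Sox9 and Twist2 were at least 2-fold higher; the rises of Runx2, Prrx1, Sp7 and Runx1 were under 2-fold. Twist1 and Msx2 were the members that fell, and Msx1 did not pass. By the same test 12.8% of all 35556 rows rose in the clone and 10.9% fell, and of the 17778 rows above the median level, where 9 of the 10 factors lie, 22.8% rose and 19.3% fell. That level is the mean over all 6 arrays, and 7 factors lay above the median on every array. Twist2 is among the 9 only through the clone, so the share of brighter rows is no fair background for it. Among all rows 1.16% rose and 1.69% fell at least 2-fold. The median log2 difference, clone minus population, was 0.45 over the 10 factors and 0.004 over all rows. All 3 clone arrays lay above all 3 population arrays for 8 factors, as for 20.2% of all rows and 31.6% of those above the median level. They lay below for the other 2, Msx2 and Twist1, as for 17.0% of all rows and 25.1% of those above the median level.

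**Figure D1:**
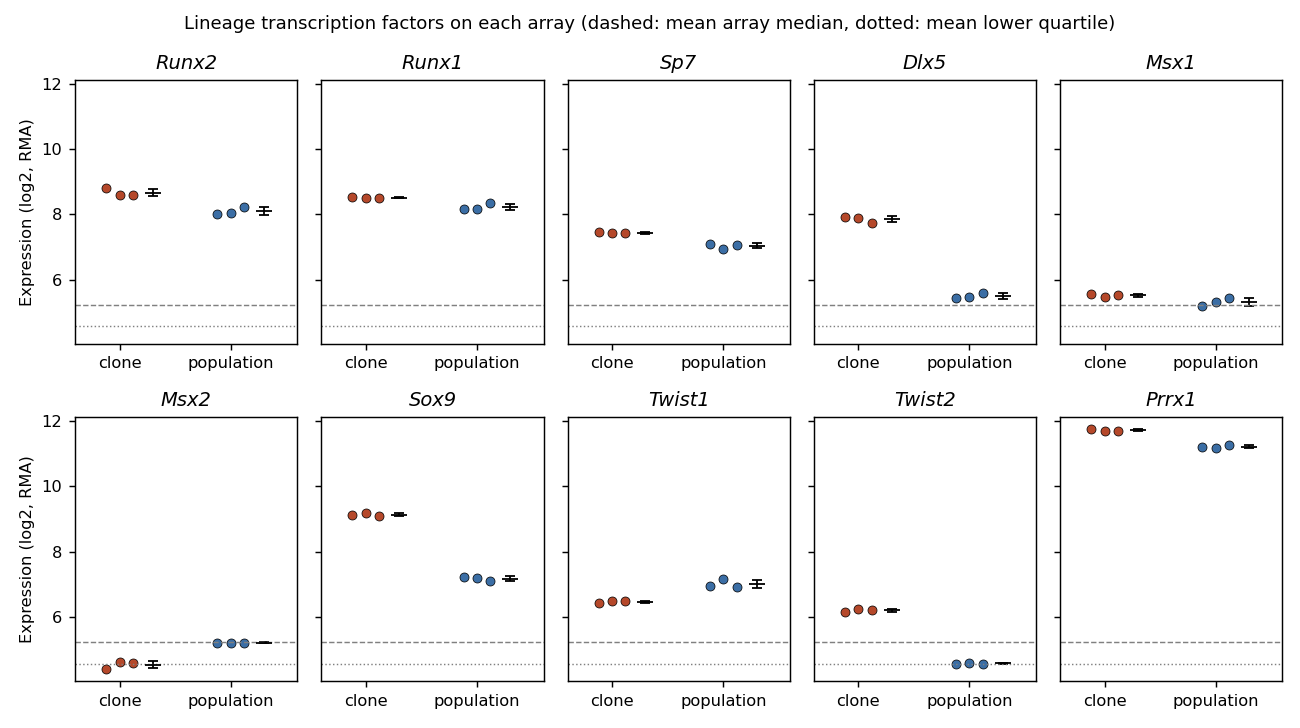
Log2 expression of each factor on every array; points are arrays, the bar beside each group is its mean ± SD (n = 3), and the lines mark the mean array median (dashed) and mean lower quartile (dotted). The clone arrays lie above the population arrays in 8 panels and below them for Msx2 and Twist1.

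Runx2, the factor of osteoblast commitment, had log2 levels of 8.80, 8.60 and 8.60 in the clone, against 8.005, 8.04 and 8.23 in the population. The clone was 0.58 ± 0.09 higher (log2 difference ± SE, 95% confidence interval 0.37 to 0.78), a 1.49-fold rise with an adjusted p of 0.00327 in limma. The groups did not overlap, and both spread by a similar amount (SD 0.12 each). Relative to the named genes above the median level on its chromosome 17, whose median difference was 0.22, Runx2 differed by 0.36 (adjusted p = 0.0218). This setting was added after the data had been seen, and it is meant wherever a value is given relative to a chromosome. It shifts all rows of a chromosome by the same amount, taken from its brighter genes. Such a value is therefore inexact for a row near or below the array medians. Runx1, the related factor best known from blood stem cells and also active in skeletal progenitors, had levels of 8.53, 8.51 and 8.50 in the clone and 8.18, 8.17 and 8.33 in the population. Its rise was the smallest of the 7, 0.29 ± 0.06 or 1.22-fold (limma adjusted p = 0.0143). The call was lost without clone array 1 (limma adjusted p = 0.0518) or population array 2 (adjusted p = 0.0511). The differences without them were 0.28 and 0.26, close to that over all arrays. Relative to chromosome 16 Runx1 differed by 0.48 (adjusted p = 0.00155).

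Within each array the level of Runx2 minus that of Runx1 averaged 0.15 ± 0.10 in the clone and -0.14 ± 0.03 in the population (log2, mean ± SD, n = 3 each). The shift of 0.29 between the groups had a p of 0.1 in an exact two-sided permutation test over arrays, also 0.1 after adjustment over the 3 family pairs compared, and 0.1 is the smallest value that 3 against 3 arrays allow. Relative to their chromosomes the shift turned to -0.13 (exact p = 0.2). Relative to the medians of all named genes of the chromosomes it stayed positive, at 0.18 (exact p = 0.1). The levels of different rows have no common scale, so only the shift of such a difference between the groups can be read.

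Sp7, which osteoblast precursors need after Runx2, had levels of 7.47, 7.41 and 7.42 in the clone and 7.08, 6.95 and 7.07 in the population. The clone was higher by 0.40 ± 0.06, or 1.32-fold (limma adjusted p = 0.00254). Sp7 lies on chromosome 15, where the 442 named genes above the median level had a median difference of -0.50, so its direction ran against that of its chromosome. Relative to that median its difference was 0.90 (adjusted p = 9.01e-05). Its nearest measured protein-coding neighbours were both lower in the clone, the nuclear pore gene Aaas by a log2 difference of -0.80 and Sp1, a general factor of the same zinc finger family, by -0.23.

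Dlx5, a homeodomain activator of osteoblast genes, differed most among the 10. Its levels were 7.92, 7.88 and 7.75 in the clone, against 5.43, 5.47 and 5.59 in the population. The clone was 5.10-fold higher (2.35 ± 0.07, limma adjusted p = 3.99e-06), and a difference of this size or larger in either direction was seen in 0.278% of all rows. Dlx6, the neighbour with which Dlx5 forms a convergent pair of homeobox genes, had levels of 7.45, 7.44 and 7.34 in the clone and 6.51, 6.49 and 6.34 in the population, a rise of 0.96 ± 0.07 (adjusted p = 0.000113). Both genes of this pair therefore separated the groups without overlap, whereas Sdhaf3, the measured neighbour on the other side of Dlx5, differed by -0.08 ± 0.07 and did not pass (adjusted p = 0.494).

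Msx1 and Msx2, homeodomain repressors expressed in skeletal and dental mesenchyme, were dim in both groups. Msx2 had levels of 4.40, 4.63 and 4.58 in the clone, close to the lower quartiles of the arrays, and 5.19, 5.21 and 5.21 in the population, close to the medians. The difference of -0.67 ± 0.07 (limma adjusted p = 0.000679), a 1.59-fold fall, is inexact because the clone level lies at the low end. Msx2 lies on chromosome 13, where the 423 named genes above the median level had a median difference of -0.58. Relative to that median Msx2 differed by -0.09 and did not pass (adjusted p = 0.379); relative to the median of all named genes of the chromosome, -0.13, it differed by -0.53 (adjusted p = 0.00202). Its neighbour Sptlc1, which encodes a subunit of the enzyme that starts sphingolipid synthesis, fell by 0.42 on the log2 scale, and the dopamine receptor gene Drd1 on the other side did not pass (-0.10, adjusted p = 0.446).

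Msx1 had levels of 5.55, 5.46 and 5.52 in the clone and 5.19, 5.31 and 5.42 in the population. The groups did not overlap, but the difference of 0.20 ± 0.07 did not pass (limma adjusted p = 0.0901), and its interval of 0.03 to 0.37, which is not adjusted for the number of rows, leaves room for a rise up to its upper bound. On the same arrays, Msx2 minus Msx1 was -1.15, -0.83 and -0.94 in the clone and -0.004, -0.10 and -0.21 in the population, a shift of -0.87 (exact two-sided permutation p = 0.1, the smallest possible). Relative to their chromosomes the shift was -0.08 (exact p = 0.6). Relative to the medians of all named genes of the chromosomes it was -0.68 (exact p = 0.1). The size of the shift is inexact because Msx2 lay at the low end in the clone.

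**Figure D2:**
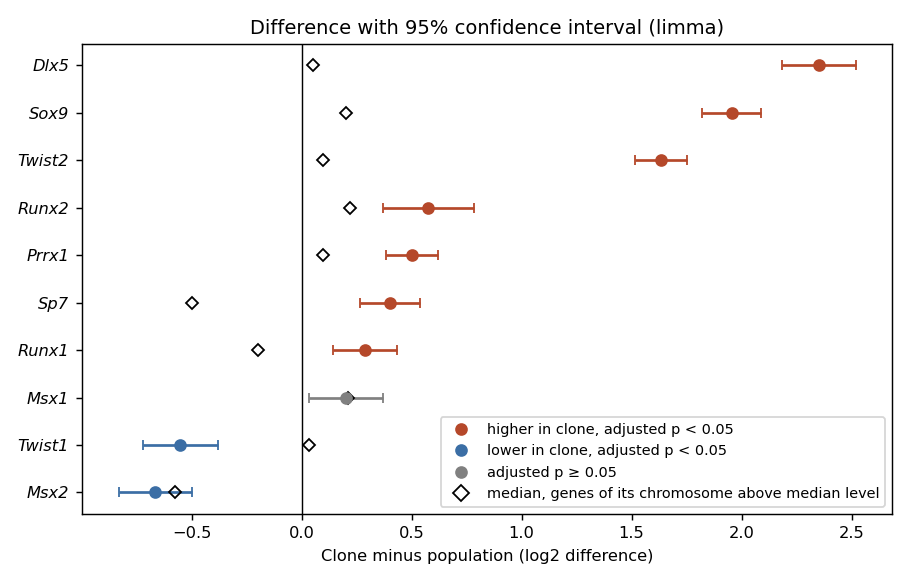
Log2 difference, clone minus population, of each factor with its 95% confidence interval from limma; open diamonds give the median difference of the named genes above the median level on the same chromosome. The intervals of Dlx5, Sox9 and Twist2 lie above 1.5, Sp7, Runx1 and Twist1 lie on the opposite side of zero from their chromosomes, and the interval of Msx2 spans the median of chromosome 13.

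Sox9, the factor that cartilage formation requires, had levels of 9.12, 9.18 and 9.10 in the clone, against 7.23, 7.20 and 7.10 in the population. It was 3.88-fold higher in the clone (1.96 ± 0.06, limma adjusted p = 3.56e-06), with little spread on either side (SD 0.04 in the clone and 0.06 in the population). Its flanking genes did not move as far upward: Kcnj2, a potassium channel gene, was lower by 1.94 ± 0.14 in the clone, with a clone level of 4.14 at the low end of the arrays and a population level of 6.08, and the zinc transporter gene Slc39a11 rose by 0.33 ± 0.06.

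Twist1 and Twist2 encode closely related basic helix-loop-helix (bHLH) proteins that bind E-box sequences with partners of the E protein class. They moved in opposite directions. Twist2 had levels of 6.16, 6.24 and 6.21 in the clone, against 4.55, 4.59 and 4.57 in the population, where it lay at the lower quartile. The rise of 1.64 ± 0.05, or 3.11-fold (limma adjusted p = 4.12e-06), is therefore inexact in size. Twist1 had levels of 6.43, 6.49 and 6.47 in the clone, against 6.96, 7.15 and 6.93 in the population, and fell by 0.55 on the log2 scale, or 1.47-fold (SE 0.07, adjusted p = 0.00171).

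On the same arrays Twist2 minus Twist1 was -0.27, -0.24 and -0.26 in the clone and -2.41, -2.56 and -2.36 in the population. The shift of 2.19 (exact two-sided permutation p = 0.1, the smallest possible) is inexact in size because Twist2 lay at the lower quartile in the population, and relative to the chromosomes it was 2.12. Hdac9, next to Twist1, and Hdac4, next to Twist2, encode related histone deacetylases. Neither passed, with log2 differences of -0.20 (adjusted p = 0.0734) and -0.03 (adjusted p = 0.881), and the other neighbour of Twist2, Asb1, rose by 0.36 ± 0.06.

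**Figure D3:**
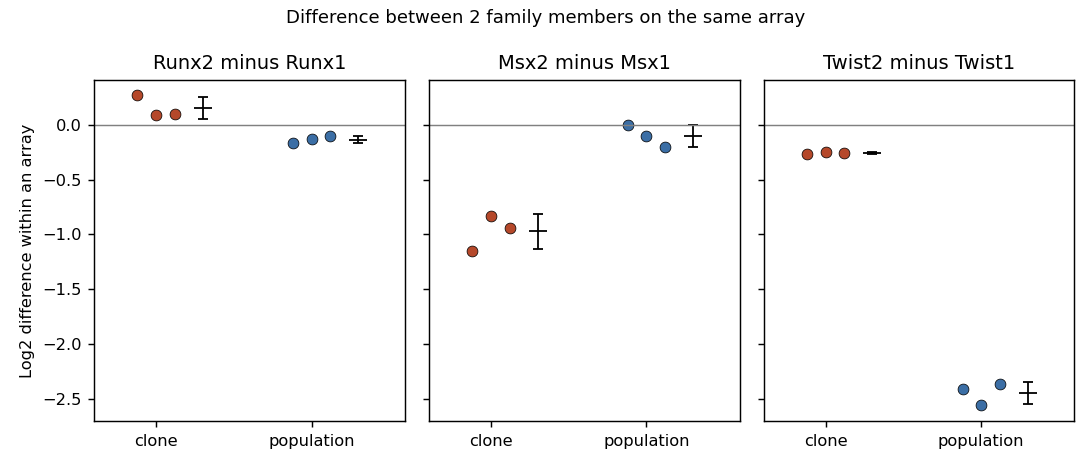
Log2 level of one family member minus that of its relative on the same array, with arrays as points and mean ± SD (n = 3) beside them. The clone arrays lie between -0.27 and -0.24 for Twist2 minus Twist1, where the population arrays lie between -2.56 and -2.36; only the shift between the groups has a meaning, since the rows have no common scale.

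Prrx1, a homeodomain factor of early limb mesenchyme and of connective tissue progenitors, had levels of 11.76, 11.70 and 11.71 in the clone and 11.22, 11.18 and 11.26 in the population. It rose by 0.50 ± 0.05, or 1.42-fold (limma adjusted p = 0.000539), with an SD of 0.03 in the clone and 0.04 in the population. Its relative Prrx2 went the other way, with levels of 7.50, 7.65 and 7.46 in the clone and 8.17, 8.09 and 8.13 in the population, a difference of -0.60 ± 0.07 (adjusted p = 0.000831). Neither neighbour of Prrx1 passed, Mroh9 differing by -0.06 and Gorab by 0.28 ± 0.12 (adjusted p = 0.178).

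**Figure D4:**
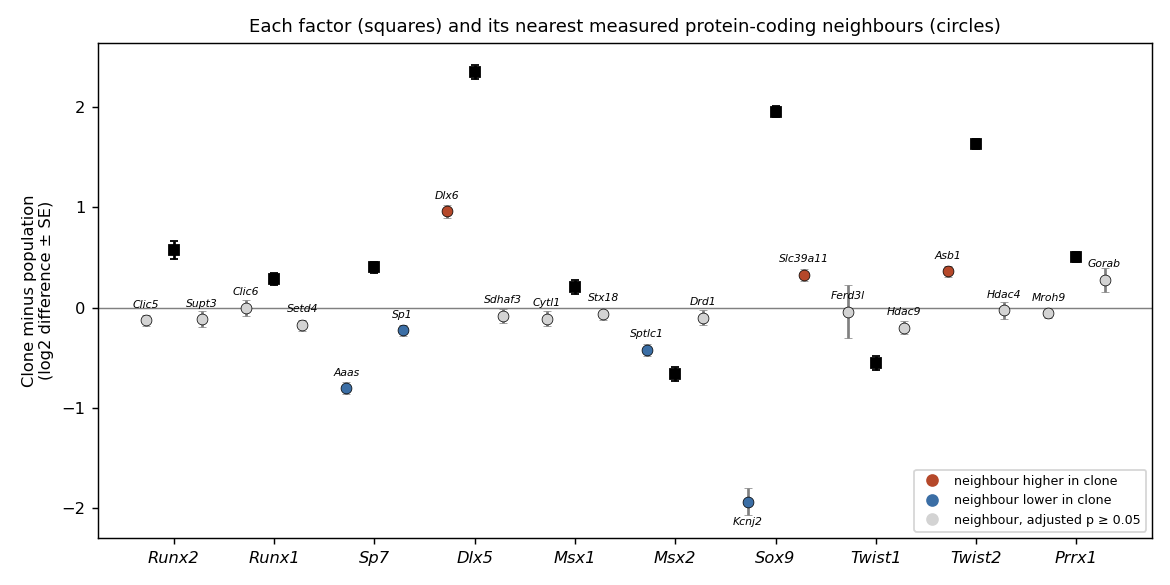
Log2 difference ± SE, clone minus population, of each factor (squares) and of the nearest measured protein-coding gene on each side in the order of the GRCm38.p6 assembly (circles). The neighbours lie between -1.94 (Kcnj2) and 0.96 (Dlx6), and every factor except Msx2 and Twist1 lies above both of its own.

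Of the 20 flanking genes as a whole, 3 were higher in the clone (Dlx6, Asb1 and Slc39a11), 4 were lower (Kcnj2, Aaas, Sptlc1 and Sp1) and 13 did not pass. Among all rows 12.8% were higher and 10.9% lower, and among those above the median level 22.8% and 19.3%, so the counts of flanking genes are near the background.

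Promoter sequence is shown for Twist2 and Twist1, which moved in opposite directions, and for Msx2 and Msx1, so that each pair of relatives can be read side by side. RefSeq promoters of GRCm38.p6 were found for 7 of the 10 factors, and the 250 bases before the annotated start are given from 5′ to 3′ on the strand of the gene. Capitals mark matches on either strand to the E-box CANNTG, the homeodomain cores TAATTA and TAATTG, the RUNX core TGTGGT, the SOX core AACAAT and the GC box GGGCGG; matches may touch or overlap.
Twist2, chr1:91801211-91801460, plus strand: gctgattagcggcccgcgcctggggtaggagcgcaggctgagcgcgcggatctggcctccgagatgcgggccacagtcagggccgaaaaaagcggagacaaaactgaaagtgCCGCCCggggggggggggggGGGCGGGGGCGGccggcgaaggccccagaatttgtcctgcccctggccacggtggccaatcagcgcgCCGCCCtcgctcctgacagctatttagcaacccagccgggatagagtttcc
Twist1, chr12:33957421-33957670, plus strand: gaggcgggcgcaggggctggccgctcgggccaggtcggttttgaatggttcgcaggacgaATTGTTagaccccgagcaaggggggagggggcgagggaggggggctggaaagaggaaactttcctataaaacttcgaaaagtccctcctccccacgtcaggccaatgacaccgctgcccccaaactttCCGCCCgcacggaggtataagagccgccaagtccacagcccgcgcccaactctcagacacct
Msx2, chr13:53472781-53473030, minus strand: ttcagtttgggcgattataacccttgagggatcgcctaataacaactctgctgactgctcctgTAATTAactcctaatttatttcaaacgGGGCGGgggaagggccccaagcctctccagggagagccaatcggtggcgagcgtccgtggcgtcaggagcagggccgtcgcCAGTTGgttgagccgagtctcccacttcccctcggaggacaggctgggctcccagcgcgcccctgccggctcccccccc
Msx1, chr5:37824586-37824835, minus strand: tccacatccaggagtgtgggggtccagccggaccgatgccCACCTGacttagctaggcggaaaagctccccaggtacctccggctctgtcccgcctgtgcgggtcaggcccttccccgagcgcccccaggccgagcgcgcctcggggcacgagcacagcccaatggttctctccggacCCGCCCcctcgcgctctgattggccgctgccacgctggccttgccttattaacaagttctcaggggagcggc

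In these letters the Twist2 window held 4 GC boxes and none of the other motifs, and the Twist1 window 1 GC box and 1 SOX core. The Msx2 window held 1 E-box, 1 homeodomain core and 1 GC box, and the Msx1 window 1 E-box and 1 GC box. Among all 32851 promoters of the same length, 66.2% held an E-box, 32.7% a GC box, 14.0% a RUNX core, 11.3% a homeodomain core and 9.42% a SOX core. G and C made up 68.8% of the Twist2 window, 62.4% of the Twist1 window, 61.6% of the Msx2 window and 68.0% of the Msx1 window, against a median of 52.4% over all promoters. No binding was measured on these arrays, and the matches are a description of the sequence.

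RUNX proteins bind DNA with the partner Cbfb and recruit corepressors of the Groucho class. Cbfb differed by -0.09 ± 0.05 between clone and population and did not pass (limma adjusted p = 0.334). The third RUNX gene, Runx3, fell, with levels of 5.79, 5.66 and 5.71 in the clone and 6.18, 6.10 and 6.27 in the population (-0.47 ± 0.06). Of the 15 partners and corepressors listed, 4 were higher in the clone and 4 lower, with a median log2 difference of -0.03. The Groucho gene Tle2 rose most (1.90 ± 0.12), with levels of 7.34, 6.87 and 6.96 in the clone against 5.17, 5.20 and 5.11 in the population, followed by Zfp521 (0.80), a zinc finger antagonist of Runx2, the short Groucho relative Tle5 (0.41) and Tle4 (0.26). Lower were Runx1t1 (-0.77), a corepressor known from its fusion with RUNX1 in human leukaemia, the coactivator gene Wwtr1 (-0.49) and Tle1 (-0.36), besides Runx3. The call for Tle4 was lost without clone array 2 or 3 or any 1 population array (adjusted p between 0.0612 and 0.095). Relative to their chromosomes, Wwtr1 differed by -0.06 (adjusted p = 0.618) and Tle5 by 0.21 (adjusted p = 0.101), while Runx3 (-0.27), Tle1 (-0.17) and Tle4 (0.47) passed. Tle4 averaged 4.99 in the clone and 4.73 in the population, below the array medians, so its value relative to the chromosome is inexact.

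Of 20 homeobox relatives of the DLX, MSX and PRRX factors, 7 were higher and 2 lower, with a median of 0.10, and 11 of the 20 lay below the median on every array. Besides Dlx6, Dlx1 (0.69), Shox2 (0.68), a limb patterning factor, and Dlx2 (0.62) rose most. Prrx2 and Pitx1 (-0.50), a hindlimb factor, fell. Pitx1 lies on chromosome 13, and relative to the median of that chromosome it differed by 0.07 (adjusted p = 0.272), whereas Shox2 on chromosome 3 differed by 1.11. The population level of Dlx1, 4.44, was at the low end, so its size is inexact.

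Sox5 and Sox6 encode the factors that work with Sox9 on cartilage genes. Both were dim: Sox5 averaged 5.41 in the clone and 5.04 in the population, a rise of 0.36 ± 0.08 (limma adjusted p = 0.0205), and Sox6 averaged 4.95 in the clone and 4.62 in the population, a rise of 0.33 ± 0.06 (adjusted p = 0.00625). The call for Sox5 was lost without clone array 1 or any 1 population array (adjusted p between 0.0509 and 0.0662), and Sox6 differed by 0.17 (adjusted p = 0.0625) relative to the median of its chromosome. Of the 13 SOX genes listed besides Sox9, with Sox5 and Sox6 among them, 3 rose and 2 fell (median -0.03). Sox11, the other one that rose, differed by 0.53, Sox4 was lower by 0.53 and Sox2 by 0.24. Sox4 (chromosome 13) and Sox2 (chromosome 3) differed by 0.04 (adjusted p = 0.755) and 0.18 (adjusted p = 0.0875) relative to their chromosomes. Relative to the median of all named genes of chromosome 3, Sox2 differed by -0.15 (adjusted p = 0.169). Sox2 also lost its call without clone array 1 or 3 or population array 2 or 3 (adjusted p between 0.095 and 0.123).

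Twist proteins pair with the E proteins encoded by Tcf3, Tcf4 and Tcf12, and the Id proteins, which lack a DNA-binding region, compete for the same partners. All 4 Id genes rose. Id1 had levels of 8.99, 8.74 and 8.86 in the clone and 6.46, 6.34 and 6.41 in the population (2.46 ± 0.08, limma adjusted p = 4.21e-06). Id4 rose by 1.50 ± 0.10, against a dim population level of 4.90, Id2 by 1.02 ± 0.08 and Id3 by 0.61 ± 0.07. The E protein genes were closer to each other between the groups: Tcf3 differed by 0.27 (adjusted p = 0.0337), Tcf4 by -0.26 (adjusted p = 0.0553) and Tcf12 by 0.22 (adjusted p = 0.17). Tcf3 was read from a row listed under its older name Tcfe2a; a further row listed as Tcf3, a name that another gene also carried, was not used. The call for Tcf3 was lost without clone array 2 or 3 or population array 2 or 3 (adjusted p between 0.0706 and 0.107), and Tcf4 passed without population array 1 (-0.33, adjusted p = 0.0232). Tcf4 also passed with arrays centred on their medians (adjusted p = 0.0328), array weights (0.0367) or trend and robust moderation (0.0474). Without rows below the median level it passed too (0.04), as it did relative to all named genes of its chromosome (0.0401). Over all alternatives its adjusted p reached 0.148. Relative to their chromosomes, Tcf3 differed by 0.07 (adjusted p = 0.476), Tcf4 by -0.42 (adjusted p = 0.0083) and Tcf12 by 0.32 (adjusted p = 0.0427).

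Of the 15 bHLH partners and relatives, 5 were higher and 3 lower (median -0.03). The 3 that fell were Scx, the tendon factor scleraxis, with 4.66, 4.84 and 4.70 in the clone against 6.67, 6.43 and 6.58 in the population (-1.82 ± 0.08), Bhlhe40 (-1.67) and Bhlhe41 (-1.39), related repressors that also act in the circadian clock. The clone level of Scx lay near the low end of the arrays.

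Among 25 other transcription factors of mesenchyme, 8 were higher and 6 lower, with a median of -0.03. Ebf1, a factor of marrow stroma and of B cells, rose by 2.29 ± 0.07, Tbx18 by 1.87, the zinc finger repressor Zeb2 by 1.11 and Ebf3 by 0.99. Foxf1 differed by -1.59 ± 0.05, Zeb1, the relative of Zeb2, by -0.89, Tbx3 by -0.87 and Mkx, a tendon factor, by -0.55. The population level of Ebf3, 4.68, and the clone level of Mkx, 4.80, were dim, so their sizes are inexact. Among 16 adipocyte and muscle factors 5 were higher and 2 lower (median 0.04), with Cebpa at 3.78 and Pparg at 1.78, both factors of fat cell formation, Myod1 and Myocd at 0.33 each, and Cebpd at -1.09 and Mef2c at -0.61. Myod1 averaged 4.82 in the clone and 4.49 in the population, both below the array medians. Myocd lost its call without population array 1 or 2 (adjusted p = 0.0516 and 0.0505). Relative to their chromosomes, Mef2c on chromosome 13 differed by -0.03 (adjusted p = 0.667), Myod1 by 0.17 (adjusted p = 0.0815) and Myocd by 0.13 (adjusted p = 0.218).

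Genes of bone matrix and mineral, many of them known targets of Runx2 and Sp7, were split: of 22 measured, 3 were higher in the clone and 8 lower, with a median of 0.02. The alkaline phosphatase gene Alpl, which mineralisation needs, rose by 3.42 ± 0.06, the receptor genes Fgfr2 by 2.51 ± 0.10 and Pth1r, for parathyroid hormone, by 1.54 ± 0.06. The osteopontin gene Spp1 (-1.96), the collagenase gene Mmp13 (-1.82), Postn (-1.32) and Tnfrsf11b (-0.74) fell most. Relative to chromosome 15 Tnfrsf11b differed by -0.24. The main bone collagen gene Col1a1 averaged 12.59 in the clone and 12.67 in the population and did not pass (-0.08 ± 0.06, adjusted p = 0.413), although relative to its chromosome, it differed by -0.28 (adjusted p = 0.0118). Markers of late osteoblasts and osteocytes were at the low end, and 10 of the 22 genes lay below the median on every array. Ibsp averaged 4.54 in the clone and 4.83 in the population, a fall of inexact size (-0.29 ± 0.05, limma adjusted p = 0.00845). Relative to its chromosome 5 the fall was -0.50. The median behind that value, 0.21, came from brighter genes, and over all named genes of the chromosome it was 0.05.

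Of 22 genes of cartilage, the known targets of Sox9 among them, 4 were higher and 3 lower, with a median of 0.02, and 14 lay below the median on every array. Col2a1, the main cartilage collagen, had levels of 6.78, 6.91 and 6.73 in the clone and 6.28, 6.25 and 6.40 in the population, a rise of 0.50 ± 0.07 (limma adjusted p = 0.00278), or 1.00 relative to chromosome 15. Acan, the cartilage proteoglycan aggrecan, had levels of 5.26, 5.31 and 5.18 in the clone and 4.58, 4.66 and 4.45 in the population, a rise of 0.69 ± 0.07 of inexact size. Col27a1 (0.36, or 0.55 relative to its chromosome) and Matn3 (0.27) also rose. Matn3 averaged 4.54 in the clone and 4.27 in the population, at the low end, so its size is inexact. Col11a1, which encodes a minor fibrillar collagen of cartilage, had the largest fall of the list (-3.00 ± 0.07). Wwp2 (-0.67), a ubiquitin ligase rather than a matrix gene, and Prg4 (-0.21), the joint lubricant, fell as well. The call for Prg4 was lost without any 1 of the 6 arrays (adjusted p between 0.0685 and 0.142) and that for Matn3 without any 1 array other than clone array 1 (adjusted p between 0.06 and 0.0911).

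**Figure D5:**
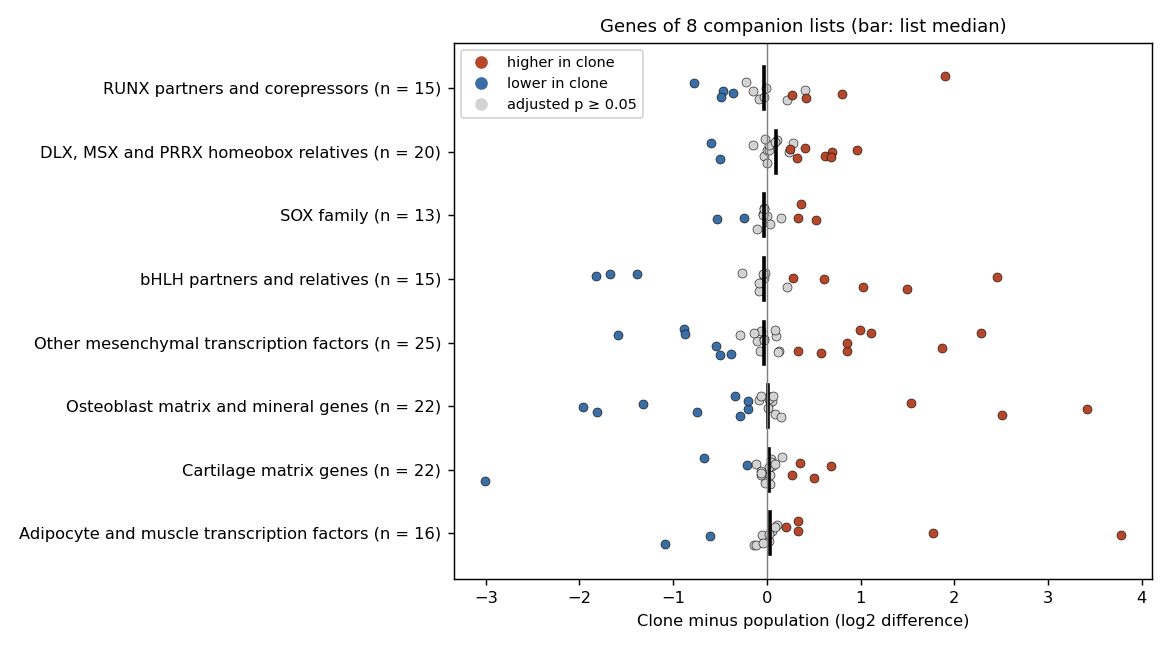
Log2 difference, clone minus population, of every measured gene in 8 lists of partners, relatives, targets and other lineage factors; colour gives the limma call and the bar the list median. List medians lie between -0.03 and 0.10, with called genes on both sides of zero in every list.

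Over the 8 lists together, 39 of 148 measured genes rose and 30 fell, and 59 lay below the median on every array. Among all rows 12.8% rose and 10.9% fell, and among those above the median level 22.8% and 19.3%.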

How the data were processed

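Per the labels' protocols, biotinylated cRNA was made from total RNA by the standard method for Affymetrix arrays; the sources used here do not give the array type or software versions. The deposited values are log2 expression, and the submitters' processing notes name RMA and Partek. The authors' deposited comparison table gives gene symbols, an unadjusted p-value and a signed linear fold (a score that is negative for falls) of clone over population, per the file headers; its log2 fold matched the difference of group means to within 7.8e-05. Another 6 columns, whose names fit none of the labels, were left out.

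All 35556 rows were fitted with limma 3.58.1 (lmFit, eBayes; R 4.3.3), 4 residual and 2.72 prior degrees of freedom, 2 groups and no covariate, with a two-sided test, the Benjamini-Hochberg adjustment across every row, and 0.05 as the threshold. Every adjusted p printed for a gene comes from limma. Groups were taken from the sample titles. Differences are clone minus population. The row with the highest mean stood for a gene with several rows. Names and chromosomes came from RefSeq GRCm38.p6, which matched 22813 of 25123 rows with a symbol. The 10 factors and the 8 companion and 4 marker lists were chosen with earlier results of these data known. The text names all 10 factors, up to 4 genes per list and direction among those that passed, and a set of genes named whatever their result, of which Bglap is not analysed here; flanking genes were added later. The number of arrays limits the precision. Arrays of a group correlated at r = 0.9946 to 0.9958 across rows, arrays of different groups at 0.9749 to 0.9793, and no 2 arrays of a group were copies. Alternatives covered the sample number as a block, normalization, dim rows, moderation, array weights, the threshold, averaged rows, the authors' p-values, chromosome medians and leaving out each array.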

Additional observations from a re-analysis of the deposited data

How the results depend on the processing

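The directions of the 9 factors that passed were the same under all 18 alternatives (17 for Msx2). Those for Dlx5, Sox9, Twist1, Twist2, Prrx1, Runx2 and Sp7 kept an adjusted p under 0.05 throughout, and under 0.01 where that was the threshold. Dlx5 ranged from 2.30 to 2.40, Sox9 from 1.75 to 1.98, Twist2 from 1.54 to 1.66 and Twist1 from -0.59 to -0.48. Runx1 (0.29) missed a threshold of 0.01 (adjusted p = 0.0143), leaving 6 factors higher, and ranged from 0.26 to 0.34 with single arrays left out. At 0.01 the rows called were 2531 higher and 2721 lower. They were 5771 higher and 5411 lower at 0.05 with chromosomes centred on their named genes above the median level. Without rows below the median level Msx2 was not tested and 1 factor was lower. With chromosomes centred on their named genes above the median level, a setting chosen after seeing the data, Msx2 differed by -0.089 and 1 factor was lower; Msx1, which passed nowhere, differed by -0.009; Pitx1 (0.074), Sox2 (0.177) and Sox4 (0.042) changed sign and did not pass, and the shift of Runx2 minus Runx1 turned to -0.13; the cause was not tested. Of 1085 further values of the 61 other genes named by rule under the alternatives, 997 kept a call and its direction or still lacked one. Another 76 lost a call with the direction kept, and 9 gained one. Genes without a call could change sign within the 997, as Ptprc did with that centring (0.02 in the main fit, -0.07 there).

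The sample number did not pair the arrays: deviations of same-numbered arrays correlated at -0.18, -0.14 and -0.04 across rows, and no array correlated best with its own number in the other group. With the number as a replicate block, 3476 rows were higher and 3193 lower, against 4553 and 3893 without it, and Runx1 (0.29) had an adjusted p of 0.0516; no other factor's call changed. Among the other named genes the block ended the calls of Matn3, Myocd, Prg4, Tcf3 and Tle4 (adjusted p between 0.0559 and 0.141). Background correction could not be varied from the deposited values, and members have 1 row each, so averaging rows left them as they were. Levels near the lower quartile limit the sizes for Msx2 and Twist2.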
